A study of Mus musculus with 2 samples.

Results

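The beta and gamma synucleins and 7 genes whose human counterparts are linked to inherited parkinsonism were followed in RNA of newborn mouse midbrain. The 9 genes are Sncb, Sncg, Park7, Pink1, Uchl1, Fbxo7, Vps35, Synj1 and Atp13a2. The rule that defines them is a list of symbols and uses no measured value, although the list was drawn up with earlier results of these data known. Each symbol matched 1 row of the gene tables, so they are 9 of the 43346 mouse gene rows and 9 of the 12144 mouse genes that reached 1 TPM in a library. TPM is a level corrected for transcript length and scaled to a fixed total per library. All their annotated transcripts in the transcript tables were read as well.

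The study holds 2 libraries of midbrain from B6NCrl mice, an inbred C57BL/6N line, taken at postnatal day 0, with no treatment or altered allele named. Each was made from 13 pg of the total RNA of 1 midbrain, an amount labelled as 1 cell-equivalent, amplified by a SMART-type protocol after synthetic spike-in RNAs had been added. Pup 1 is replicate 1 and pup 3 is replicate 2, both under 1 donor record, with sex not collected. They form a single group, so no condition was compared, and a ratio between them is a difference between 2 libraries with no replicate check. The libraries held 26037002 counts on mouse genes in pup 1 and 32408655 in pup 3, so a count of 0 allowed up to 3 counts, or 0.115 and 0.0926 CPM (counts scaled to a common total of mouse gene counts). Intervals and this floor cover counting error only, because many reads can descend from 1 amplified molecule.

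As background, synucleins are small proteins of presynaptic terminals that bind vesicle membranes. The other 7 genes act at steps of protein, vesicle and organelle turnover. Pink1 and Park7 guard mitochondria and redox balance, Uchl1 and Fbxo7 work in the ubiquitin system, Vps35 and Synj1 serve endosomal sorting and vesicle recycling, and Atp13a2 is a pump of the lysosome. The midbrain contains the dopamine neurons of the substantia nigra, which are lost in Parkinson disease, but all 9 genes are also used in other neurons. In RNA of a whole midbrain, fewer cells of a type and less RNA per cell cannot be told apart.

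The label of the tissue was set against marker genes. All 12 pan-neuronal markers reached 1 TPM in both pups, with a summed level of 11832 TPM in pup 1 and 8128 TPM in pup 3, and the 10 Hox genes that mark hindbrain or spinal cord all had 0 counts in both. Of 13 dopamine neuron markers, 3 were read in both pups (summed level 88.1 TPM in pup 1 and 198 TPM in pup 3). Th, which encodes tyrosine hydroxylase and marks dopamine neurons, had 46.9 TPM in pup 1 and 38.5 TPM in pup 3, while the transcription factors Foxa1 and Foxa2 were at 0 counts in both. By the 4-fold rule defined below, 5 of the 13 were higher in pup 1 and 4 higher in pup 3. These counts stand beside 25.9% and 20.5% of all detected genes. Slc18a2, for instance, had 15.7 TPM in pup 1 and 0 in pup 3, and Aldh1a1 had 0 and 60.8 TPM. Of 8 regional midbrain markers, 2 were read in both pups. RNA of other cells was present too: the 6 meningeal fibroblast markers summed to 2780 TPM in pup 1 and 3778 TPM in pup 3, the 6 erythroid markers to 1703 and 2891 TPM, and the 7 radial glia and astrocyte markers to 2427 and 2849 TPM. Of 6 markers each, 4 of the oligodendrocyte lineage (summed 108 and 115 TPM), 3 of microglia (82.2 and 94.5 TPM) and 5 of endothelial and mural cells (257 and 254 TPM) were read in both pups. The part of these cells in the levels below was not tested.

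All 9 genes were detected at 1 TPM or more in both pups. Among all genes that reached 1 TPM in a library, 60.8% were detected in both, and among the 8304 genes with a mean of at least 10 TPM, where all 9 lie, 78.2% were. The 9 genes were listed with earlier results of these data known, so these shares are a description and not a test. Their mean levels ran in the order Uchl1, Park7, Vps35, Synj1, Atp13a2, Sncg, Sncb, Pink1 and Fbxo7. The ranges of the 2 pups did not overlap between neighbours as far down as Sncg. They overlapped between Sncg and Sncb, between Sncb and Pink1, and between Pink1 and Fbxo7. The order of Sncg and Sncb and that of Pink1 and Fbxo7 also turned between the pups, so neither is set by these data. Sncb lay above Pink1 within each library, at 63.9 against 54.9 TPM in pup 1 and 44.4 against 6.74 TPM in pup 3. The gap between the means of Uchl1 and Park7 was 805 TPM, against an SD of 774 TPM for Uchl1.

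**Figure D1:**
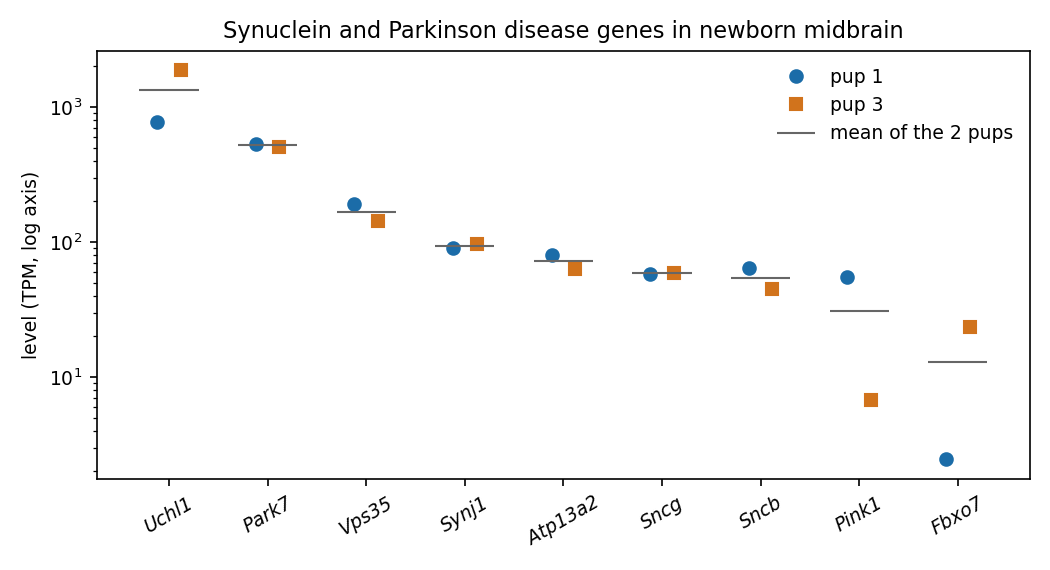
Level of each gene (TPM, log axis) in pup 1 (circle) and pup 3 (square), with the mean of the 2 pups as a line. Uchl1 and Park7 lie highest, with means of 1323 and 518 TPM, and the points of Pink1 and Fbxo7 lie farthest apart, at 54.9 and 6.74 TPM and at 2.46 and 23.3 TPM in pup 1 and pup 3.

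A gene was called over 4-fold apart when its count ratio, with all of the exact (Clopper-Pearson) 95% interval and scaled by the total over mouse genes, lay beyond 4-fold. By this rule 2 of the 9 genes, Pink1 and Fbxo7, were over 4-fold apart, against 46.5% of all detected genes and 34.3% of the genes with a mean of at least 10 TPM. The median size of the log2(TPM + 1) ratio was 0.40 over the 9 genes and 1.19 over the 8304 genes of at least 10 TPM. The median log2 count ratio of pup 1 over pup 3 was -0.09 over the 9 genes and -0.17 over those 8304 genes. These comparisons too are a description, since the list was drawn up with earlier results known. Scaling by edgeR's TMM, by DESeq2 size factors or by the spike-in total added 0.19, 0.20 or 0.11 to every log2 ratio, which is as large as the ratios of several of these genes. Values below are scaled by the total unless another scaling is named.

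**Figure D2:**
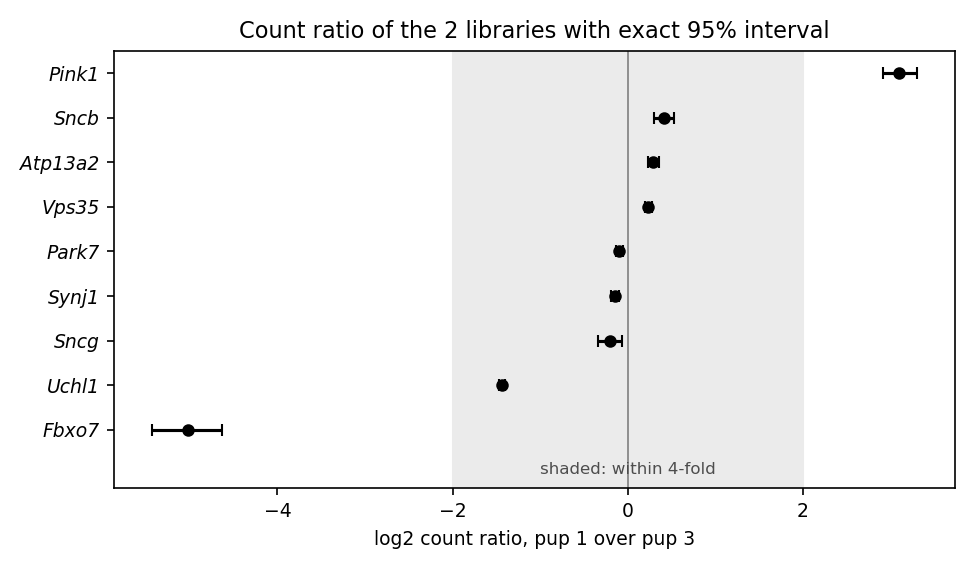
Log2 count ratio of pup 1 over pup 3 for each gene (points) with its exact 95% interval (bars), and the range within 4-fold shaded. Pink1 at 3.10 and Fbxo7 at -5.02 lie wholly outside the shaded range, Uchl1 lies inside it at -1.44, and the other 6 genes lie between -0.20 and 0.42.

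Sncb encodes beta-synuclein and Sncg encodes gamma-synuclein. The annotated reading frames have 399 and 369 bases, and 69.8% of 364 aligned bases were identical. The start of both frames is shown because the paralogs share more of it than of the rest, with 96 identical bases among the first 120 (80%), printed in capitals, against 64.8% after it. They are on GRCm38 at chr13:54765564-54765683 and chr14:34374461-34374580, both on the minus strand.
Sncb: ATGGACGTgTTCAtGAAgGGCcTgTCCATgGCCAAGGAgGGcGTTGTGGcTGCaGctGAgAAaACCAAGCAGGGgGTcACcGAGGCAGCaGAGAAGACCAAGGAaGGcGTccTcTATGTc
Sncg: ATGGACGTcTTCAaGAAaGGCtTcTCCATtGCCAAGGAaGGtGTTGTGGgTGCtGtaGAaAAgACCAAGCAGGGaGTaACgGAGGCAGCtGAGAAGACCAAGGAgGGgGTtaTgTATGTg
The differences between the paralogs are spread along the whole stretch, and the deposited posterior SD of the gene count was 0 for both genes in both libraries, so the deposited counts carry no uncertainty from sharing reads with another gene.

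Sncb (ENSMUSG00000034891.9, GRCm38 chromosome 13, 54758860 to 54766595, minus strand) had 63.9 TPM in pup 1 and 44.4 TPM in pup 3, a mean of 54.2 ± 13.8 TPM (SD, n = 2). These levels rest on 1295 counts in pup 1 and 1207 in pup 3, a log2 count ratio of 0.42 with an interval of 0.30 to 0.53. Sncg (ENSMUSG00000023064.4, chromosome 14, 34370274 to 34374789, minus strand) had 57.9 TPM in pup 1 and 59.2 TPM in pup 3, a mean of 58.5 ± 0.983 TPM (SD, n = 2). Sncg had the smallest SD of the 9 genes. Its 710 counts in pup 1 and 1016 in pup 3 gave a log2 ratio of -0.20 (interval -0.34 to -0.06), which was -0.01 under TMM. Within a library, the log2 ratio of Sncb over Sncg on the TPM + 1 scale was 0.14 in pup 1 and -0.41 in pup 3. The sign differed between the pups, so neither synuclein gene is called the higher. Gamma-synuclein is known as a product of peripheral sensory and motor neurons. A list of 7 markers of sensory, motor and other synuclein-rich neurons summed to 29.4 TPM in pup 1 and 38.0 TPM in pup 3. Of these, 2 were detected in both pups: Isl1 (6.45 TPM in pup 1 and 32.2 TPM in pup 3) and Rbpms (7.82 and 5.79 TPM). Slc18a3 had 15.1 TPM in pup 1 and 0 in pup 3, and Prph, Chat and Scn10a were at 0 counts in both. The part of such neurons in the level of Sncg was not tested.

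Both synuclein genes were read almost wholly as transcripts with their full frame. Sncb was carried by ENSMUST00000036825.9 at 98.4% of its TPM in pup 1 and 90.5% in pup 3. The remainder in pup 3, 9.49%, was on a shorter transcript, ENSMUST00000134110.1, with a reading frame of the same length. Sncg has a single annotated transcript.

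Park7 encodes DJ-1, a redox-sensitive protein that protects cells from oxidative damage. Park7 (ENSMUSG00000028964.10, chromosome 4, 150897133 to 150914437, minus strand) had 532 TPM in pup 1 and 504 TPM in pup 3, a mean of 518 ± 19.5 TPM (SD, n = 2). It was the second of the 9 genes in each library and ranked 258 in pup 1 and 295 in pup 3 among all mouse genes. With 7005 counts in pup 1 and 9301 in pup 3, its log2 count ratio was -0.09 (interval -0.14 to -0.05) by the total, 0.10 by TMM and 0.02 by spike-ins, so its direction turned with the scaling. ENSMUST00000030805.9 carried 99.2% of its TPM in pup 1 and 90.2% in pup 3. In pup 3, another 9.70% was on ENSMUST00000105673.3, which has a reading frame of the same 567 bases. Errfi1, a neighbour 28241 bases away on the opposite strand, had 13.0 TPM in pup 1 and 1.24 TPM in pup 3 and was over 4-fold higher in pup 1.

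Pink1 encodes a kinase that builds up on damaged mitochondria and phosphorylates ubiquitin there. Pink1 (ENSMUSG00000028756.8, chromosome 4, 138313409 to 138326307, minus strand) had 54.9 TPM in pup 1 and 6.74 TPM in pup 3, a mean of 30.8 ± 34.1 TPM (SD, n = 2). It had 1734 counts in pup 1 and 251 in pup 3, which is 8.60-fold higher in pup 1, with a log2 ratio of 3.10 (interval 2.91 to 3.30). Of all detected genes, 25.9% were over 4-fold higher in pup 1, so a ratio of this kind was common between these libraries. Park7 was above Pink1 in each library, by 3.25 in pup 1 and 6.03 in pup 3 on the log2(TPM + 1) scale, with deposited TPM intervals that did not overlap.

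The transcript that led Pink1 differed between the pups. The full-length ENSMUST00000030536.8, with a reading frame of 1740 bases in 8 exons, carried 62.8% of the gene's TPM in pup 1 and 29.5% in pup 3. ENSMUST00000105816.3 carried 37.2% in pup 1 and 70.5% in pup 3. It has 3 exons and a reading frame of 504 bases, and it begins inside an intron of the full-length model. By counts the full-length transcript held 73.8% in pup 1 and 41.1% in pup 3. The lead of the short transcript in pup 3 rests on 148 against 103 counts. The deposited TPM intervals of these transcripts did not overlap in either pup, at 29.7 to 35.9 and 16.2 to 23.8 TPM in pup 1 and at 1.31 to 2.40 and 3.81 to 5.67 TPM in pup 3. The junction of the intron-derived start with the shared exon is shown because its 40 lower-case bases belong to the short transcript and not to the full-length one, while the 40 capitals are exon bases of both (chr4:138316092-138316171, minus strand).
Pink1 intron-start: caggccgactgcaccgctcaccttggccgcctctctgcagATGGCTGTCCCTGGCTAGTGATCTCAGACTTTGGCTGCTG
In all, 298 of the 1465 bases of the short transcript are not in the full-length one, and 1120 coding bases of the full-length one are not in the short one. The microRNA genes Mir7019 and Gm27646, which lie within Pink1, were at 0 counts in both pups. Ddost, which encodes a subunit of the oligosaccharyltransferase and lies 781 bases from Pink1 on the opposite strand, had 252 TPM in pup 1 and 50.8 TPM in pup 3 and was also over 4-fold higher in pup 1.

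Uchl1 encodes a ubiquitin hydrolase that is one of the most abundant proteins of neurons. Uchl1 (ENSMUSG00000029223.9, chromosome 5, 66676091 to 66687234, plus strand) had 776 TPM in pup 1 and 1870 TPM in pup 3, a mean of 1323 ± 774 TPM (SD, n = 2). It ranked 152 among all mouse genes in pup 1 and 53 in pup 3. Its 11782 counts in pup 1 and 39655 in pup 3 gave a log2 ratio of -1.44 (interval -1.46 to -1.41), so it was 2.70-fold lower in pup 1. This is beyond 2-fold but not beyond 4-fold, and the log2 ratio stayed between -1.44 and -1.24 under the scalings tried. Beside this, the 12 pan-neuronal markers summed to 11832 TPM in pup 1 and 8128 TPM in pup 3, with 8 higher in pup 1 and 4 in pup 3. Without Tubb3, the highest of them, the other 11 summed to 5905 TPM in pup 1 and 6334 TPM in pup 3. Of these 11, 7 were still higher in pup 1 and 4 in pup 3. The split was made after the values were seen. The share of neuronal RNA in the ratio of Uchl1 was not tested. Park7 lay below Uchl1 in each library, by a log2(TPM + 1) ratio of -0.54 in pup 1 and -1.89 in pup 3.

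In both pups most Uchl1 abundance was assigned to a transcript without an annotated reading frame. ENSMUST00000176015.1, annotated as a retained-intron transcript, carried 70.6% of the gene's TPM in pup 1 and 72.9% in pup 3. The coding ENSMUST00000031131.9 carried 28.8% in pup 1 and 27.1% in pup 3, with 669 coding bases in 9 exons. In the annotation used here, these models share 928 of the 980 bases of the shorter one (94.7%). They differ by the remaining 52 bases on one side and 249 on the other. The models behind the deposited division were 979 and 1167 bases long, against 980 and 1177 here, so its separating bases may differ slightly. The ends that differ in the annotation used here are shown, each up to 40 bases of exon 3 that both hold, in capitals. The coding line starts at the start codon and crosses the first introns (chr5:66676290-66676983, plus strand), and the other starts with the 52 intron bases (chr5:66676892-66676983, plus strand).
Uchl1 coding: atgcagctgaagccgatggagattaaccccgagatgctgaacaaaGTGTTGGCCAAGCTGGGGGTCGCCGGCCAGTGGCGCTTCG
Uchl1 intron-start: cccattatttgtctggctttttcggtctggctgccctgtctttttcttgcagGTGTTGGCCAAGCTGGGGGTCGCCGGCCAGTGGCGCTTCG
From the capitals onward both transcripts hold the same exon 3, and 45 of the coding bases, all in lower case above, are missing from the intron-start model. The deposited posterior SD of each transcript's count was 131 in pup 1, beside 7863 counts on the intron-start transcript and 3892 on the coding one, and 230 in pup 3, beside 27327 and 12327 counts. The antisense gene Uchl1os overlaps Uchl1 by 408 bases. It had 5 counts in pup 1 and 0 in pup 3, and since the use of strand in counting is not given in the sources used here, reads from the overlap cannot be told apart.

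Fbxo7 encodes an F-box protein, the part of an SCF ubiquitin ligase that binds the substrate. Fbxo7 (ENSMUSG00000001786.10, chromosome 10, 86021972 to 86051873, plus strand) had 2.46 TPM in pup 1 and 23.3 TPM in pup 3, a mean of 12.9 ± 14.7 TPM (SD, n = 2). Its 56 counts in pup 1 and 2262 in pup 3 gave a log2 count ratio of -5.02 (interval -5.43 to -4.64). Of all detected genes, 20.5% were over 4-fold higher in pup 3. The size of the gap depended on the scale: it was 32.5-fold in counts and 9.46-fold in TPM. The effective length used for the TPM was 1399 bases in pup 1 and 4268 bases in pup 3, and the transcripts that led were 1498 and 5388 bases long.

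Fbxo7 was assigned to different transcripts in the pups. In pup 1 all 56 counts went to ENSMUST00000001837.9, which skips exon 2 and is annotated as a target of nonsense-mediated decay, with a reading frame of 168 bases. Its share was 100% by the deposited percent but 60.5% by the posterior mean, so with 56 counts the assignment is weak. In pup 3 the full-length ENSMUST00000130320.3, with a reading frame of 1569 bases, led with 61.6%, the decay target held 23.8% and ENSMUST00000134490.3, which has no reading frame, 14.7%. The junctions that separate the first pair are shown, with 20 bases of exon 1 in lower case and then the first 20 bases of the next exon in capitals (the skipped form spans chr10:86022125-86029028 and the full-length form chr10:86022125-86024435, plus strand).
Fbxo7 skipped: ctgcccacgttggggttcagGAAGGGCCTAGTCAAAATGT
Fbxo7 with exon 2: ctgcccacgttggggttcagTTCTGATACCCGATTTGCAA
Transcripts with exon 2, which has 295 bases, held 0% of Fbxo7 TPM in pup 1 and 61.6% in pup 3. The overlapping genes A230060F14Rik and Gm24430 were at 0 counts in both pups.

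Vps35 encodes the core subunit of retromer, the complex that returns receptors from endosomes. Vps35 (ENSMUSG00000031696.8, chromosome 8, 85260392 to 85299802, minus strand) had 189 TPM in pup 1 and 143 TPM in pup 3, a mean of 166 ± 32.5 TPM (SD, n = 2). With 9514 counts in pup 1 and 10068 in pup 3, its log2 count ratio was 0.23 (interval 0.19 to 0.27). It has a single annotated transcript. Orc6, a subunit of the origin recognition complex, overlaps Vps35 by 171 bases on the opposite strand and had 36.0 TPM in pup 1 and 0.83 TPM in pup 3, over 4-fold higher in pup 1. Its 912 counts in pup 1 and 27 in pup 3 are few beside those of Vps35, and reads from the 171 shared bases cannot be told apart without strand.

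Synj1 encodes synaptojanin 1, a lipid phosphatase that strips clathrin coats from recycled synaptic vesicles. Synj1 (ENSMUSG00000022973.13, chromosome 16, 90936092 to 91011308, minus strand) had 90.5 TPM in pup 1 and 97.2 TPM in pup 3, a mean of 93.8 ± 4.74 TPM (SD, n = 2). Its 5674 counts in pup 1 and 7800 in pup 3 gave a log2 ratio of -0.14 (interval -0.19 to -0.09) by the total and 0.05 by TMM, so its direction turned with the scaling. Vps35 lay above Synj1 in each library, by 1.06 in pup 1 and 0.56 in pup 3 on the log2(TPM + 1) scale.

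In both pups the leading Synj1 transcript was a short one from the 3' part of the gene. ENSMUST00000154276.3, with 8 exons and a reading frame of 566 bases, carried 44.0% of the gene's TPM in pup 1 and 61.6% in pup 3. ENSMUST00000121759.3, which has the longest reading frame (4821 bases, 32 exons), carried 9.23% in pup 1 and 8.16% in pup 3. Another long model, ENSMUST00000170853.3 (3927 coding bases, 33 exons), carried 19.8% and 6.35% of the TPM. In counts it was close to the leader in pup 1, at 2022 (posterior SD 247) against 2208. In pup 3 it had 971 counts against 4636. The known long and short tails of synaptojanin 1 differ at a small exon near the 3' end. Transcripts that hold an annotated exon of 24 bases there carried 64.0% of Synj1 TPM in pup 1 and 67.9% in pup 3, and those that span it without the exon carried 9.23% and 8.16%. This exon is shown in capitals with 20 bases on each side, from ENSMUST00000154276.3 (chr16:90939015-90944374, minus strand), because the annotated reading frame ends inside it: 18 of the 24 bases are in the frame and a TAA stop codon follows.
Synj1 segment: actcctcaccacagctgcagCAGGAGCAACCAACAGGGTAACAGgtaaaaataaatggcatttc
Without the 24 bases the frame runs on into the next exon. The division among the long models is uncertain, since the deposited posterior SD was 226 beside 951 counts on ENSMUST00000121759.3 in pup 1 and 207 beside 1263 counts in pup 3. Genes overlapping Synj1 on the other strand were Gm22933 at 0 counts in both pups, Gm15965 at 0 TPM in pup 1 and 0.26 TPM in pup 3, and 4930404I05Rik at 10.5 TPM in pup 1 and 2.39 TPM in pup 3.

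Atp13a2 encodes a lysosomal P5-type ATPase that moves polyamines out of the lysosome. Atp13a2 (ENSMUSG00000036622.11, chromosome 4, 140986873 to 141007330, plus strand) had 80.5 TPM in pup 1 and 62.9 TPM in pup 3, a mean of 71.7 ± 12.4 TPM (SD, n = 2). Its 3584 counts in pup 1 and 3636 in pup 3 gave a log2 ratio of 0.30 (interval 0.23 to 0.36). Fbxo7 lay below Atp13a2 in each library, by a log2(TPM + 1) ratio of -4.56 in pup 1 and -1.40 in pup 3.

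The coding transcripts of Atp13a2 exchanged places between the pups although the gene's level was close. ENSMUST00000037055.9, with a reading frame of 3507 bases, carried 60.0% of the TPM in pup 1 and 0% in pup 3. ENSMUST00000127833.2, with a frame of 3345 bases, carried 0% in pup 1 and 38.3% in pup 3. Both have 29 exons, and the second is the first without 74 bases near the 3' end. These bases, all in the longer frame and so all in capitals, are shown because they are the annotated difference between the coding transcripts of the 2 pups (chr4:141006679-141006752, plus strand).
Atp13a2 extra segment: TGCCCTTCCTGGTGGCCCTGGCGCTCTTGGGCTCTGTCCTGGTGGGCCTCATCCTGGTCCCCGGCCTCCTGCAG
Transcripts with all of these 74 bases held 3208 counts in pup 1 and 1074 in pup 3, where all were on the retained-intron ENSMUST00000151517.3 (3.15% of the TPM in pup 1 and 18.0% in pup 3). Those that span the site without them held 0 counts in pup 1 and 2074 in pup 3. ENSMUST00000137630.2 ends inside the segment and holds only part of it, so its counts are in neither of these groups. The deposited TPM interval of ENSMUST00000037055.9 was 44.0 to 48.2 TPM in pup 1 and reached at most 0.795 TPM in pup 3. ENSMUST00000137630.2, a retained-intron transcript of 877 bases, carried 36.9% in pup 1 and led in pup 3 with 43.8% of the TPM, but with 10.5% and 13.4% of the counts, so by counts ENSMUST00000127833.2 led in pup 3.

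**Figure D3:**
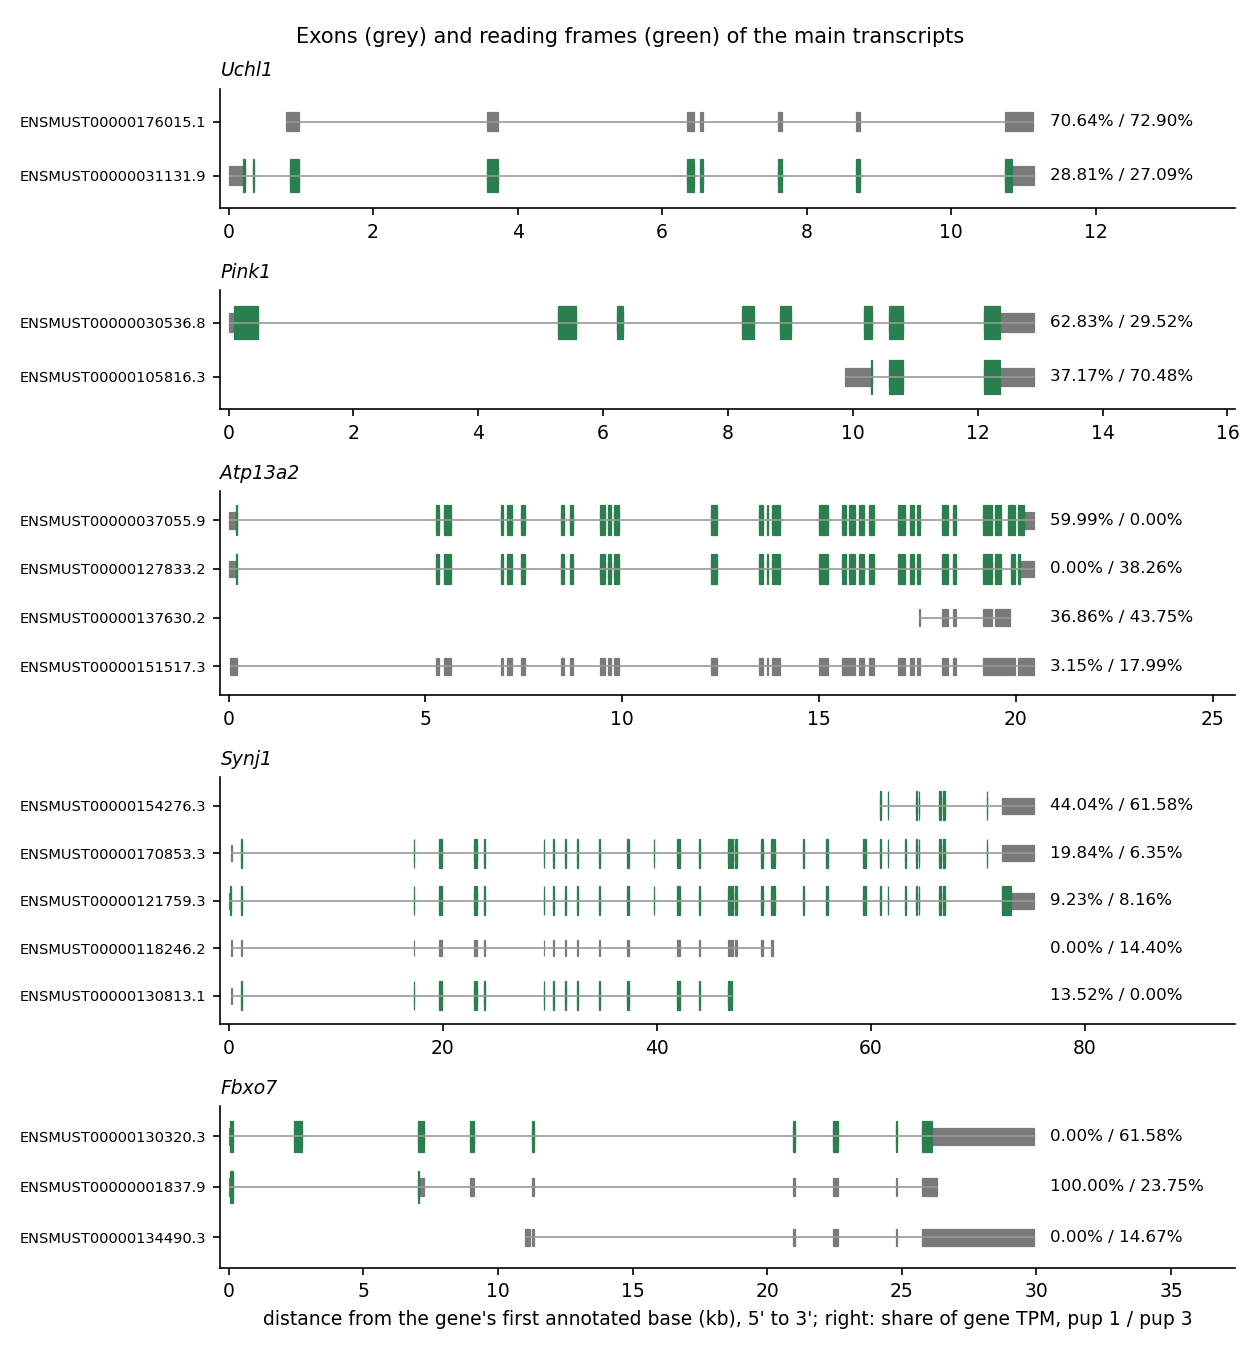
Exons (grey), reading frames (green) and introns (lines) of the main transcripts of 5 genes, drawn 5' to 3' by distance from the gene's first annotated base in kb, with the share of the gene's TPM in pup 1 and pup 3 at the right. The leading Uchl1 model starts inside an intron (70.64% and 72.90%), the Pink1 and Synj1 models that begin late in the gene hold 70.48% and 61.58% in pup 3, and the Atp13a2 coding models read 59.99% and 0% against 0% and 38.26%.

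Of the 7 genes with several annotated transcripts, 4 had the same leading transcript in both pups (Sncb, Park7, Uchl1 and Synj1) and 3 did not (Pink1, Fbxo7 and Atp13a2). Among 5311 genes with several transcripts and at least 50 counts in each library, 62.8% had the same leader. The leader carried the gene's longest reading frame in 4 of the 7 genes in pup 1 and in 3 of the 7 in pup 3, against 57.9% and 53.3% of 5202 coding genes chosen in the same way. Both counts lie near these shares. Ranking transcripts by counts or by posterior mean also gave 4 genes with the same leader.

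**Figure D4:**
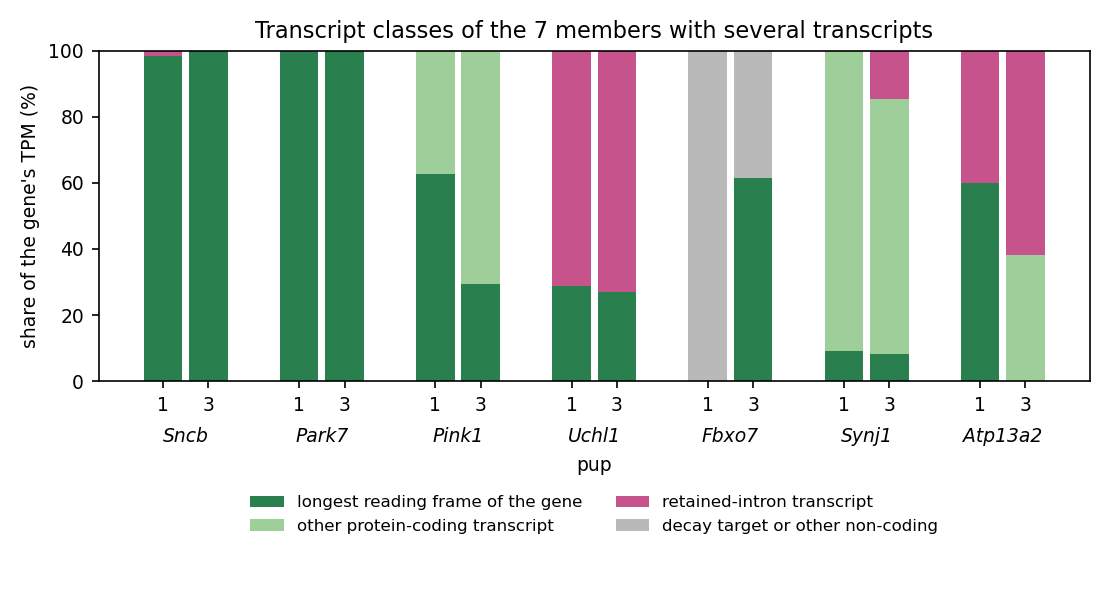
Share of each gene's TPM (%) by transcript class in pup 1 (left bar) and pup 3 (right bar) for the 7 genes with several transcripts. Sncb and Park7 are almost wholly on their longest reading frame, Uchl1 is mostly on a retained-intron transcript in both pups (70.6% and 72.9%), and Fbxo7 has 0% on its longest frame in pup 1 and 61.6% in pup 3.

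The other genes of these pathways were read from 9 lists with 140 distinct genes. Of these, 113 reached 1 TPM in both libraries, 16 did so in pup 1 alone, 6 in pup 3 alone, and 5 did not reach it. Among all genes that reached 1 TPM in a library, 60.8% did so in both, and among those with a mean of at least 10 TPM 78.2% did. Over 4-fold differences were found for 36 of the 135 detected genes (26.7%), with 25 higher in pup 1 and 11 higher in pup 3. Of all detected genes, 46.5% were over 4-fold apart, 25.9% higher in pup 1 and 20.5% higher in pup 3, and of those of at least 10 TPM 34.3% were. Against these shares the counts of single lists, of 8 to 28 genes, are small numbers and are given as a description. The lists share some genes, so their counts cannot be added.

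Around the synucleins, 12 of 14 presynaptic partners and kinases were detected in both pups and the other 2 in pup 1 alone, and the 4-fold rule gave 4 as higher in pup 1 and 0 as higher in pup 3, beside 25.9% and 20.5% of all detected genes. The highest were Rab3a, a GTPase of synaptic vesicles (817 TPM in pup 1 and 711 TPM in pup 3), and the SNARE proteins Snap25 (366 and 552 TPM) and Vamp2 (405 and 296 TPM). All 3 were read well above both synuclein genes in each library. Of 12 redox partners of Park7, 10 were detected in both, and 1 was over 4-fold higher in each pup. They were led by the superoxide dismutase Sod1 (1269 and 782 TPM), the peroxiredoxin Prdx2 (902 and 917 TPM) and the glutathione peroxidase Gpx4 (466 and 701 TPM).

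Of 28 genes of mitochondrial quality control around Pink1, 23 were detected in both pups, 4 in pup 1 alone and 1 in pup 3 alone, and the 4-fold rule gave 4 as higher in pup 1 and 3 as higher in pup 3. The ubiquitin gene Ubb had 7285 TPM in pup 1 and 5563 TPM in pup 3, the mitophagy receptor Bnip3l 461 and 487 TPM, and the autophagy adaptor Sqstm1 151 and 429 TPM. Parl, the protease that cleaves Pink1 in healthy mitochondria, was listed at 0 TPM in pup 1 and at 149 TPM in pup 3, and was singled out after its values were seen. Of the listed genes over 4-fold apart, 4 differed in the direction of Pink1 and 3, Parl among them, in the opposite one. These counts stand beside 25.9% and 20.5% of all detected genes, and a link between Parl and Pink1 was not tested.

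All 10 ubiquitin hydrolases and ubiquitin sources around Uchl1 were detected in both pups, and 0 were over 4-fold apart. Ubb, with the levels given above, is also in this list. Of 8 partners of Fbxo7 in the SCF ligase and the proteasome, 7 were detected in both pups, and 0 were over 4-fold apart. The counts of 0 in these small lists stand beside 46.5% of all detected genes and 34.3% of those of at least 10 TPM. Skp1a, the adaptor that holds F-box proteins, had 495 TPM in pup 1 and 868 TPM in pup 3, the RING subunit Rbx1 313 and 326 TPM, and the proteasome subunit Psma2 127 and 284 TPM. Cdk6, a cell cycle kinase, was at 0.02 TPM in pup 1 and 0 in pup 3, and was singled out as the undetected gene.

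Of 21 genes of retromer and endosomal sorting, 14 were detected in both pups, 5 in pup 1 alone and 2 in pup 3 alone, and the 4-fold rule gave 9 as higher in pup 1 and 2 as higher in pup 3, beside 25.9% and 20.5% of all detected genes. The highest were the late endosomal GTPase Rab7 (480 TPM in pup 1 and 455 TPM in pup 3), the retromer subunit Vps29 (387 and 282 TPM) and the sorting nexin Snx3 (327 and 342 TPM). The paralogous retromer subunits Vps26a and Vps26b, singled out after their values were seen, had opposite differences. Vps26a had 0.23 TPM in pup 1 and 68.0 TPM in pup 3, and Vps26b had 26.7 TPM in pup 1 and 1.40 TPM in pup 3.

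Of 26 genes of clathrin uncoating and vesicle recycling around Synj1, 24 were detected in both pups and 1 in each pup alone, and the 4-fold rule gave 3 as higher in pup 1 and 2 as higher in pup 3. The clathrin-uncoating chaperone Hspa8 had 4268 TPM in pup 1 and 1587 TPM in pup 3, the AP-2 subunit Ap2m1 1592 and 906 TPM, and the clathrin light chain Clta 315 and 308 TPM. Of 10 P5-type ATPases and lysosomal partners of Atp13a2, 8 were detected in both pups, and the 4-fold rule gave 1 as higher in pup 1 and 2 as higher in pup 3. For both lists, the counts by the 4-fold rule stand beside 25.9% and 20.5% of all detected genes. The counts detected in both pups stand beside 60.8%. The protease Ctsd had 194 TPM in pup 1 and 321 TPM in pup 3, the proton pump subunit Atp6v0a1 194 and 256 TPM, and the deacetylase Hdac6 107 and 74.9 TPM. Atp13a4, a paralog of Atp13a2, was at 0 counts in both pups.

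Of 19 other genes linked to Parkinson disease, 11 were detected in both pups, 4 in pup 1 alone and 1 in pup 3 alone, 3 had no counts, and the 4-fold rule gave 6 as higher in pup 1 and 1 as higher in pup 3, beside 25.9% and 20.5% of all detected genes. They were led by Chchd2, a mitochondrial intermembrane protein (437 TPM in pup 1 and 864 TPM in pup 3), the lysosomal protease Ctsb (243 and 205 TPM) and Chchd10 (58.8 and 68.7 TPM). The kinase gene Lrrk2, the GTPase gene Rab32 and Gch1, which encodes the first enzyme of tetrahydrobiopterin synthesis, were at 0 counts in both pups. At this depth 0 counts still allowed a level of up to 0.115 CPM in pup 1 and 0.0926 CPM in pup 3, by counting error alone.

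**Figure D5:**
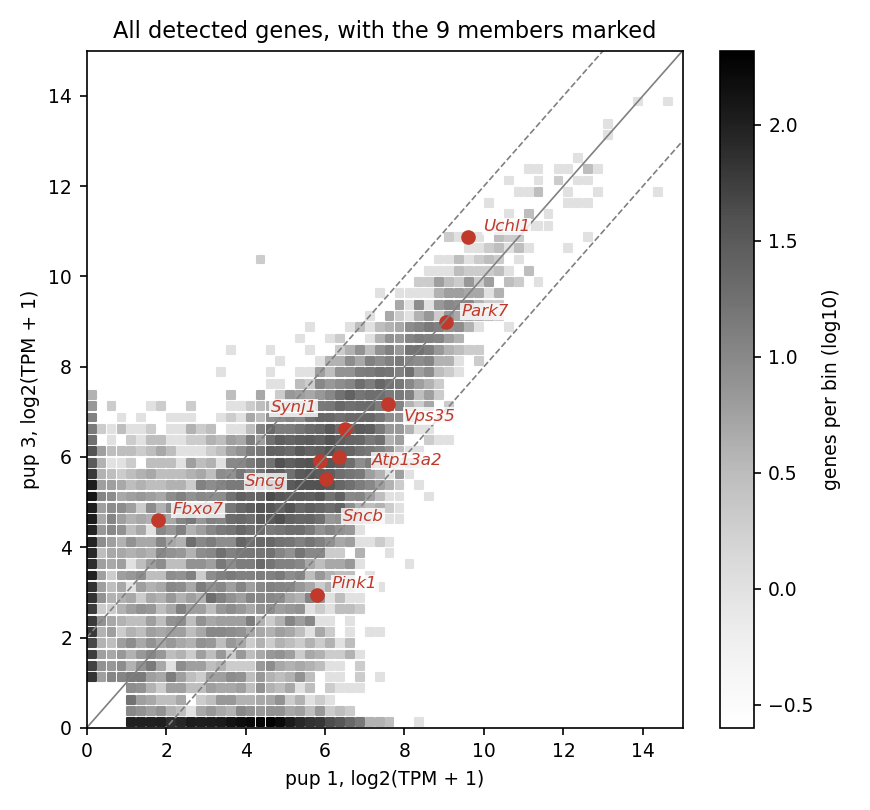
Level in pup 1 against level in pup 3, log2(TPM + 1), for the 12144 genes that reached 1 TPM in a library, binned and shaded by number of genes, with the 9 genes as points, equality as a solid line and 4-fold differences as dashed lines. Pink1 and Fbxo7 lie beyond the dashed lines, while the other 7 lie between them, and Uchl1 and Park7 are the highest of the 9 genes.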

How the data were processed

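Per the file headers and records, the authors aligned reads to mm10 and quantified them per library with GENCODE release M4. Which aligner and quantification program they ran, in which version, and whether strand was used, is not given in the sources used here. Expected counts, as deposited, are estimates and were rounded for counting intervals. The deposited TPM values are scaled over all rows, spike-in and tRNA rows included, and the deposited FPKM values and posterior means served as alternatives. The deposited percent of a gene's TPM on each transcript gave isoform shares. The deposited score columns, the posterior SD of the counts and the bounds of the TPM interval, were used as given. Those bounds belong to the posterior mean, so the TPM of Park7, Uchl1 and Vps35 lies above its own interval in both libraries.

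Symbols, coordinates, transcript structures and reading frames were taken from the M21 release of GENCODE, which like mm10 uses GRCm38, so models may differ from M4. Sequences are M21 transcripts. A gene was detected at 1 TPM, and a pair of genes was given a direction where its sign was the same in both pups and the TPM intervals stood apart in each, which held for 4 of 5 pairs. No p-value was computed. The 4-fold rule was first run on simulated counts with known ratios. These counts carried counting error only, without the spread that amplification adds, so the run does not show how the rule behaves on amplified RNA.

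Named were the 9 genes, the 3 highest of each pathway list and those at 0 counts in both pups, genes overlapping a member, neighbours over 4-fold apart, and transcripts that led in a pup or held 20% in a pup. Other transcripts were named where they share a printed junction or hold most of the remainder, chosen after their values were seen. No gene was named for a like pattern, since 2 libraries of 1 group allow no measure of it. Some genes that this rule selects are left out of the text. The members and lists were chosen with earlier results of these data known. Work used Python 3.11.15, numpy 2.4.6, scipy 1.17.1, pandas 2.3.3, biopython 1.88, matplotlib 3.10.9, and R 4.3.3. edgeR 4.0.16 and DESeq2 1.42.0 served only for scaling.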

Additional observations from a re-analysis of the deposited data

How the results depend on the processing

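With 2 libraries of amplified RNA, the spread between pups holds both biology and amplification, which cannot be told apart. No paired analysis was possible because both libraries belong to 1 group. All 9 genes stayed detected at 0.1 TPM, at 10 counts and by posterior mean, and 7 of 9 at 10 TPM in both pups, without Pink1 and Fbxo7. The same count of 2 genes over 4-fold apart was found under TMM, DESeq2 size factors, spike-in scaling and posterior mean counts. With a 2-fold limit it was 3 genes, Uchl1 being the third, against 53.1% of the genes of at least 10 TPM. The median log2 count ratio of the 9 genes was -0.09 by the total, 0.10 by TMM, 0.11 by DESeq2 size factors and 0.02 by spike-ins, so it has no stable sign. The median over the 9 genes of the mean TPM was 71.7, and ran from 62.9 without pup 1 to 80.5 without pup 3. For Pink1 and Fbxo7 the level of either pup alone is far from the mean of both. The count of 4 gene pairs with a direction was the same with TPM + 0.1, posterior mean TPM and FPKM. Among the alternatives on single genes, 82 values stayed within the spread and 28 moved beyond it, most of them ratios under another scaling.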
